A study of Mus musculus with 48 samples.

Results

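A-to-I editing of known sites was compared between bone marrow (BM), spleen and thymus of mice whose ADAR1 can edit, using 9 of the 48 libraries of the study, 3 for each tissue. The 9 libraries were chosen by their labels alone: the ADAR genotype WT and the tissue Bone Marrow, Spleen or Thymus. Editing was measured by mmPCR-seq, in which loci with known editing sites are amplified from cDNA in multiplexed PCR pools and sequenced, so that the share of reads carrying G in place of A at a site gives its editing level. The WT mice were Adar1+/+ Ifih1-/- males of 12 weeks on a C57BL/6 background. They lacked both copies of Ifih1, which encodes the RNA sensor MDA5, so WT refers to Adar1 only. BM was sampled as haematopoietic cells, and the replicates were described as independent biological replicates. The same 3 tissues were taken from Adar1E861A/E861A Ifih1-/- mice (E861A), of the same sex, age and strain and with an ADAR1 that cannot edit. Their 9 libraries gave the level at each site without editing by ADAR1, which includes any editing by the other enzyme, ADAR2. Of the 48715 positions in the tables, 5013 had over 100 reads in at least 2 of 3 WT replicates of all 3 tissues. A total of 649 of these had a level above 1%, over the reads of the replicates together, in at least 1 tissue, and these are the sites tested below.

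ADAR1 converts adenosine to inosine in double-stranded RNA, and inosine is read as guanosine by the sequencing and by most of the cell's machinery. Most edited bases in mammalian mRNA lie in 3′UTRs and introns where inverted repeats fold back on each other, and a small set lies in coding sequence and changes the encoded amino acid. Haematopoietic tissues carry little of the second editing enzyme ADAR2. Marrow holds developing myeloid, erythroid and B cells, the spleen mainly mature B and T cells with macrophages and red cells, and the thymus mainly developing T cells.

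Of the 649 sites, 498 were annotated in 3′UTRs, 62 as intergenic, 45 in introns, 24 in non-coding RNAs, 12 as nonsynonymous, 6 as synonymous and 2 in 5′UTRs. The sequences around the sites on which the comparisons turn are given first, as 21 bases of the mm9 genome in the orientation of the transcript, 5′ to 3′, with the edited adenosine in capitals. The first group holds the 10 sites at which spleen differed from BM.
Exoc8 3′UTR, chr8:127417769-127417789, minus strand: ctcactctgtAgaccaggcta
uc007vsb.1, chr15:55087117-55087137, plus strand: gcacacctttAaccctagccc
Rpa1 3′UTR, chr11:75114507-75114527, minus strand: aacagaaattAtgtcacaagt
Cds2 3′UTR, chr2:132135359-132135379, plus strand: tacagtgcttAatatgtgcca
Mmgt1 3′UTR, chrX:53840810-53840830, minus strand: gtcagtgctaAgattataggt
Bri3bp 3′UTR, chr5:125936965-125936985, plus strand: cggagtttaaAgccagtctgg
Cds2 3′UTR, second site, chr2:132135606-132135626, plus strand: gtaagcatttAgcaaggtgcc
Acot10 coding exon, chr15:20595379-20595399, minus strand: tggtaacagtAgatgatatca
Rnf168 3′UTR, chr16:32299915-32299935, plus strand: gctcttctgaAggtcgcaagt
intergenic site, chr16:4626366-4626386, minus strand: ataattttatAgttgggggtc

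The second group holds the sites outside the first that were among the most edited on average over the 3 tissues, with the most edited nonsynonymous site, shown for contrast.
Trim12c 3′UTR, chr7:111487810-111487830, minus strand: gtgtattcttAgtgatcactt
Rhoa 3′UTR, chr9:108239451-108239471, plus strand: tttgtgaattAggctgtaact
Mad2l1 3′UTR, chr6:66490065-66490085, plus strand: aatgtgtgttAttgttccatt
Cog3 coding exon, chr14:76119516-76119536, minus strand: cattaaggaaAtttccctgga
uc012aji.1, chr17:6123037-6123057, plus strand: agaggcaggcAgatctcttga

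The reference base on the transcript strand was A at all 5013 covered positions. In the GENCODE annotation of the same build, uc007vsb.1 lies in a UTR exon of Deptor, uc012aji.1 in an exon of Tulp4 and the intergenic site on chromosome 16 in a UTR exon of Coro7. With A or G allowed at the edited base, the 21-base windows of 5 of the 10 called sites occur once in the genome, namely both Cds2 sites and those of Rpa1, Mmgt1 and Bri3bp. The window of Exoc8 occurs 1750 times, that of the intergenic site 747 times, that of Rnf168 4 times and those of uc007vsb.1 and Acot10 2 times each. At the intergenic site 687 of the 747 copies carry G. The other copy of the Acot10 window lies in the coding exon of its paralog Acot9 on the X chromosome and carries G at the edited base. How reads of such copies were placed was not tested.

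The libraries differed in depth and in what they covered. Coverage summed over positions, where a read spanning several positions counts at each, was 5447363, 1861831 and 8364948 in BM replicates 1, 2 and 3, 7978131 to 9466888 in spleen and 8908643 to 10847485 in thymus. BM replicate 2 was therefore the shallowest and read only 253 of the 649 sites above 100 reads, against 637 to 649 in the other 8 libraries. Thymus replicate 3 was as deep as the other thymus libraries. Its levels across sites correlated with the spleen libraries at a Pearson r of 0.61 to 0.73 and with the other thymus libraries at 0.21 and 0.54. Its coverage over 367 genes correlated with spleen at a Spearman rho of 0.92 to 0.96, with thymus replicate 1 at 0.94 and with thymus replicate 2 at 0.71. Thymus replicate 2 in turn correlated with BM at 0.73 to 0.87, with thymus replicate 1 at 0.85 and with spleen at 0.60 to 0.66. These are descriptions across sites and genes of shared amplicon pools, and sites and genes are not replicates. The labelled tissues could not be checked by lineage: none of the 6 B cell, 8 T cell and 4 erythroid markers is among the amplified genes, and of 7 myeloid markers only Mpeg1 is.

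Editing was highest in BM, lowest in spleen and most uneven in thymus. Averaged over the 241 sites that all 9 libraries read, editing reached 7.01%, 8.27% and 5.36% in BM, 1.79%, 2.27% and 2.13% in spleen, and 3.95%, 7.67% and 1.05% in thymus, for replicates 1, 2 and 3. Every BM library thus lay above every spleen library, while the thymus libraries reached from below the lowest spleen library to within the BM range. The same sites had 0.375% to 0.580% in the 9 E861A libraries, so that thymus replicate 3 was the WT library closest to the E861A level. Means were 6.88% ± 1.46 in BM, 2.06% ± 0.247 in spleen and 4.22% ± 3.32 in thymus (SD, n = 3). Spleen was lower than BM by 4.82 percentage points (p = 0.1, two-sided exact permutation test, the smallest p that 3 against 3 libraries allow; adjusted p = 0.3 over the 3 comparisons). Thymus was 2.66 points below BM (exact permutation p = 0.3; adjusted p = 0.4) and 2.16 points above spleen (exact permutation p = 0.4; adjusted p = 0.4), both within the spread of the thymus libraries. Without thymus replicate 3 the thymus lay 3.63 points above spleen and 0.997 points below BM, and without thymus replicate 2 it lay 0.487 points above spleen and 4.58 points below BM. In whole tissues a lower level in each cell and a smaller share of cells that edit cannot be told apart.

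**Figure D1:**
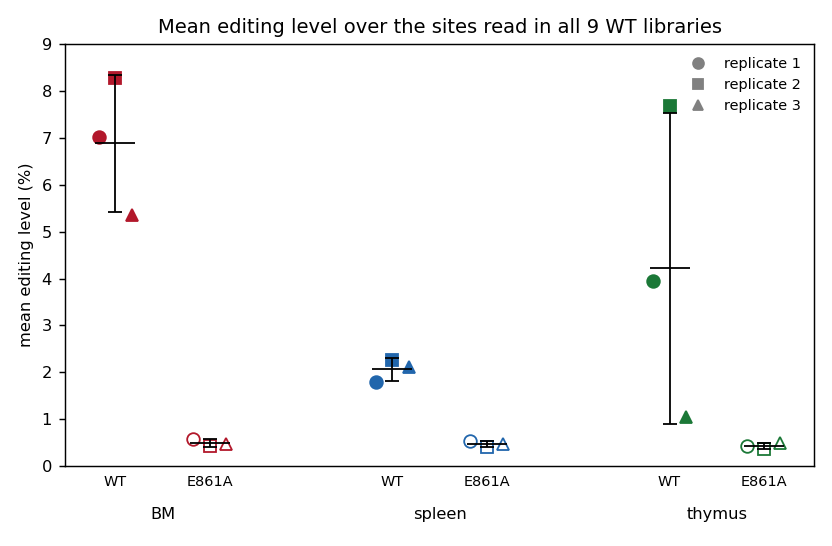
Mean editing level (%) over the 241 sites read in all 9 WT libraries, by tissue; filled symbols are WT libraries, open symbols are E861A libraries at the same sites, symbol shapes are replicate numbers, and bars are the mean and SD of 3 libraries. The 3 spleen libraries sit between 1.79% and 2.27%, below all 3 BM libraries, and the thymus libraries span 1.05% to 7.67%.

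The summed coverage of 6 genes of neurons was lowest in the 3 libraries with the highest mean levels, which did not hold for each of the genes. All 6 neuron markers (Cadps, Gria2, Gria4, Grik2, Htr2c and Kcna1) are among the amplified genes, and none is a defining gene of blood cells. Htr2c, the serotonin receptor 2C gene known from brain, reached 2, 2 and 706 reads at its best-covered position in BM, 1460, 1527 and 956 in spleen and 817, 32 and 1046 in thymus. The 3 libraries with the highest mean levels, BM replicates 1 and 2 and thymus replicate 2, were thus the ones with under 100 reads at Htr2c. Summed over the 6 genes, the highest coverage was 1310, 320 and 6063 reads in BM, 6616, 6166 and 6512 in spleen and 7780, 3938 and 5737 in thymus. Thymus replicate 2 went the other way at 2 of the genes, with the highest Cadps coverage of the 9 libraries (1846 reads) and 910 reads at Gria2, where 5 libraries had 3 to 8. Among the other 6 libraries the sum did not follow the level: BM replicate 3, the highest of them in level, had 6063 reads and thymus replicate 3, the lowest, had 5737. Of the 6 genes, 1 to 6 had a position above 100 reads in a BM library, 3 to 5 in a spleen library and 3 to 5 in a thymus library. Mpeg1, a macrophage gene, was covered in every library, by 3222 to 6671 reads at its best position outside spleen and by 2668 to 3866 in spleen. The part of this coverage in the differences of editing was not tested, and the neuron coverage was set beside the editing levels after both had been seen.

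**Figure D2:**
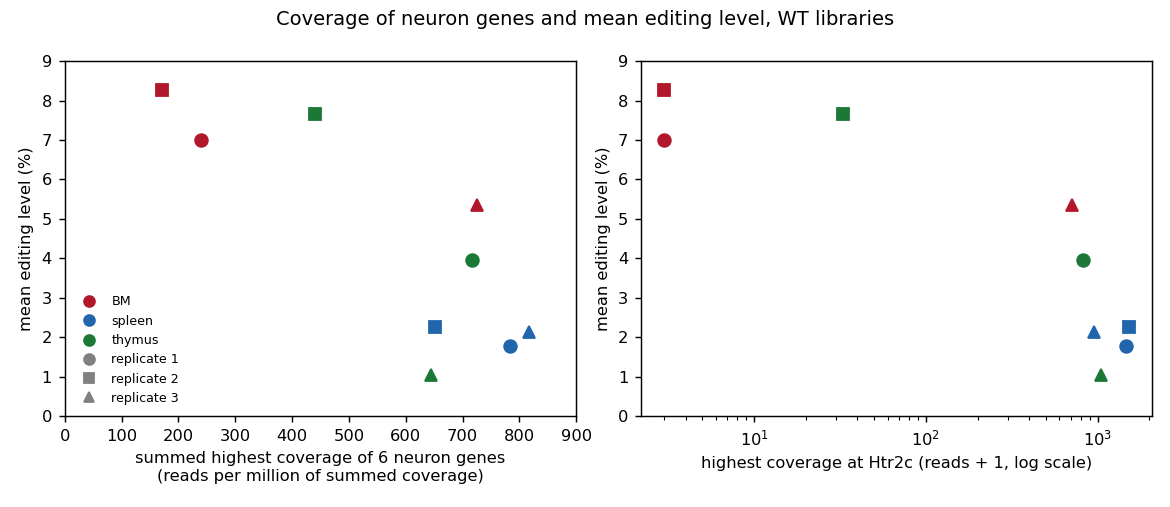
Mean editing level (%) of each WT library against the summed highest coverage of 6 neuron genes scaled to the summed coverage of the library (left) and against the highest coverage at Htr2c in reads plus 1 on a log axis (right); colours are tissues and shapes are replicate numbers. BM replicates 1 and 2 and thymus replicate 2 have the highest levels, 7.01%, 8.27% and 7.67%, and the lowest values on both horizontal axes.

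Fewer sites were edited in spleen than in BM or thymus. Over the reads of the replicates together, 453 of the 649 sites were above 1% in BM, 428 in thymus and 219 in spleen, and 123 were above it in all 3. The shared 123 made up 27.2% of the BM sites, 28.7% of the thymus sites and 56.2% of the spleen sites, and had a median level of 12.2% in the tissue where each was highest. In 75 of the 123, at least 2 libraries were above 1% in each tissue. BM and thymus shared 288 sites, 63.6% of the BM sites and 67.3% of the thymus sites. Spleen shared 65.3% of its sites with BM and 65.3% with thymus. Of all tested sites, 69.8% were edited in BM and 65.9% in thymus, so each of these shares lay near that of all tested sites. Every tested site had passed the limit in some tissue, so these base shares do not hold for all 5013 covered sites. Sites edited in a single tissue had low levels, with a median of 2.21% in BM, 2.09% in thymus (120 sites) and 1.48% in spleen (56 sites). Sites above 50% numbered 13 in BM, 1 in spleen and 1 in thymus. In E861A mice the limit was also passed at 32 of the 451 BM sites that could be read there, 21 of 219 spleen sites and 19 of 428 thymus sites.

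Replicates varied widely at single sites. Of the sites edited in a tissue, all 3 libraries were above 1% at 70 of 453 in BM, where replicate 2 read few sites, at 39 of 219 in spleen and at 74 of 428 in thymus. Counting only the libraries that read a site, every one was above 1% at 41.7% of these sites in BM, 17.8% in spleen and 17.8% in thymus. At 133 thymus sites, 72 BM sites and 31 spleen sites, 1 replicate was at or under 1% while another exceeded 10%. No edited read was seen at 25.7% of the sites read in thymus replicate 3, 23.7% in spleen replicate 3, 24.6% in BM replicate 1 and 34.8% of the 253 sites read in BM replicate 2, against 6.01% in BM replicate 3. Reads were not counted by molecule in this assay, so binomial intervals cover counting error only. At the sites named here, the 95% Wilson interval of a library's level had a median width of 1.58 percentage points, small against the spread between replicates.

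The comparison of spleen with BM asks which sites are edited to different levels in marrow and in a peripheral lymphoid organ. At 10 sites the level was lower in spleen, and at no site was it higher, by limma on the log2 ratio of edited to unedited reads with Benjamini-Hochberg adjustment at 0.05. The 10 calls were 1.54% of the 649 sites tested, and 1 of them, Acot10, was at 33.1% or more in the E861A spleen libraries. Without the adjustment, 108 sites had a p under 0.05, all lower in spleen. The tissue mean was lower in spleen at 461 sites, with a median difference of 1.34 percentage points in favour of BM. All spleen libraries lay below all BM libraries at 26.8% of the sites and above them at 36 sites (5.55%). More of the tested sites passed the 1% limit in BM alone than in spleen alone. Sites that passed it in a single tissue have their highest pooled level there by selection. These direction counts, and those of the other comparisons below, therefore hold for the tested sites and not for all 5013 covered sites. The calls depended on the libraries: no site passed without any one of the 3 spleen libraries or with a quasi-binomial model of the reads (81 sites at an unadjusted p under 0.05), 1 passed without BM replicate 2, and 31 passed without thymus replicate 2 or without thymus replicate 3. Fitted to the 6 libraries of BM and spleen alone, 34 sites passed, all lower in spleen, among them the 10. Other choices gave calls in both directions: over all 5013 covered sites, without the 1% limit, limma called 6 sites higher and 5 lower in spleen, and the study's criterion called 77 of the 649 lower and 2 higher.

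**Figure D3:**
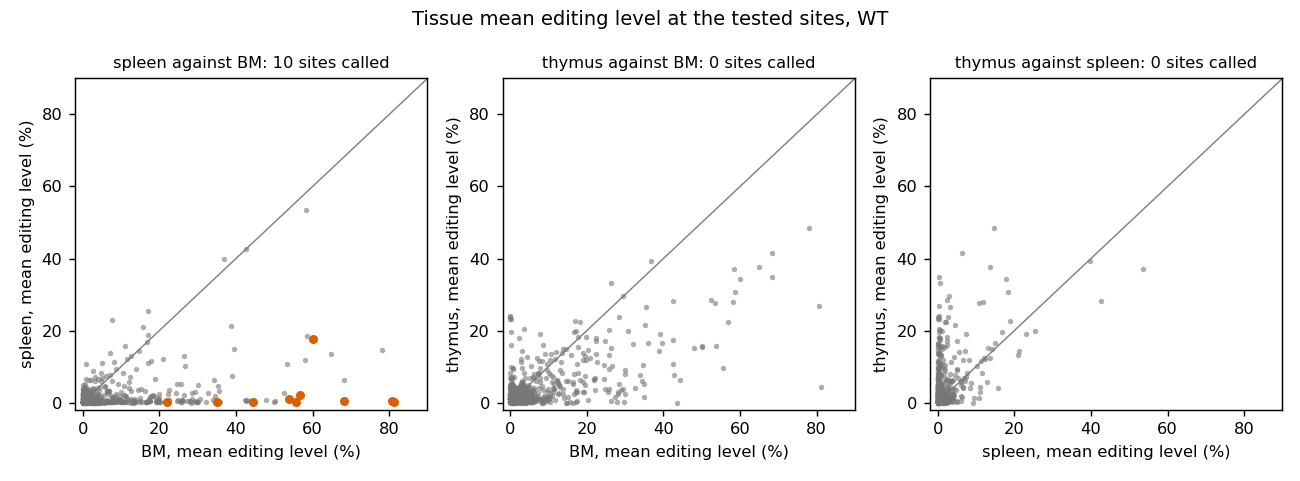
Tissue mean editing level (%) at each of the 649 sites, for spleen against BM, thymus against BM and thymus against spleen; each point is a site, the line marks equal levels, and orange points passed the test. In the left panel 9 of the 10 called sites lie near the BM axis, and Acot10 lies above it.

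At 8 of the 10 sites every spleen library was under 2%, the exceptions being Mmgt1, at 6.09% in spleen replicate 1, and Acot10. Exoc8 encodes a subunit of the exocyst, which tethers secretory vesicles at the plasma membrane. Its 3′UTR site was edited in 110 of 116 reads (94.8%, interval 89.2% to 97.6%) and 585 of 867 reads (67.5%) in BM replicates 1 and 3, in 0.19%, 0.11% and 0% of reads in spleen, and in 0%, 12.4% and 0.26% in thymus. The 2 BM libraries stood far above all others, and BM replicate 2, with 2 reads, was not used. The difference between spleen and BM was -9.02 ± 1.46 (SE) on the log2 ratio scale (limma adjusted p = 0.0239).

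The site in uc007vsb.1 was, like Exoc8, above 80% in the BM mean. It was edited in 84.7% and 76.6% of reads in BM replicates 1 and 3, 0.99%, 0.098% and 0% in spleen and 13.0%, 67.2% and 0% in thymus, with BM replicate 2 unread. Thymus replicate 2 approached the BM level, while thymus replicate 3 had 0 of 854 reads, which allows a share of up to 0.351%. The spleen difference was -8.31 ± 1.73 on the log2 ratio scale (limma adjusted p = 0.0348).

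Rpa1 encodes the large subunit of replication protein A, which coats single-stranded DNA. Its site was edited in 76.0%, 67.9% and 61.0% of reads in BM, 0.78%, 0.20% and 0.12% in spleen, and 22.7%, 81.6% and 0% in thymus. BM and spleen did not overlap, and the thymus libraries covered the whole range, replicate 2 lying above every BM library and replicate 3 having 0 of 2598 reads. The spleen difference was -7.34 ± 1.59 (limma adjusted p = 0.0348). E861A libraries of spleen reached 5.03% at this site.

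Cds2 encodes a CDP-diacylglycerol synthase of the phosphatidylinositol pathway and held a pair of called sites. The first was edited in 67.4%, 69.8% and 29.5% of reads in BM, 0.33%, 0.11% and 0% in spleen and 16.5%, 12.5% and 0% in thymus. The second, chosen for naming after its values were seen, was edited in 37.8%, 42.9% and 52.3% in BM, 0.13%, 0.24% and 0.10% in spleen and 1.86%, 16.9% and 0.043% in thymus. At both, the 3 tissues were ordered BM above thymus above spleen by their means, and BM stood clear of the other tissues in every library. The spleen differences were -6.80 ± 1.26 and -6.12 ± 1.19 (limma adjusted p = 0.0239 and 0.0269).

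Mmgt1, a membrane protein of the endoplasmic reticulum, was edited in 55.5%, 69.3% and 45.5% of reads in BM, 6.09%, 0.060% and 0.12% in spleen and 29.6%, 32.9% and 4.30% in thymus. Here the thymus lay between the other tissues in replicates 1 and 2, and below spleen replicate 1 in replicate 3. The spleen difference was -6.0 ± 1.10 (limma adjusted p = 0.0239). Bri3bp was edited in 55.5%, 67.0% and 39.0% in BM, 1.97%, 0.84% and 0.15% in spleen and 2.90%, 42.8% and 1.67% in thymus. Only thymus replicate 2 came near the BM level. The spleen difference was -5.99 ± 1.24 (limma adjusted p = 0.0337).

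Rnf168, a ubiquitin ligase of the response to DNA breaks, had 49.3% and 20.6% in BM replicates 1 and 3, 0.54%, 0.26% and 0.045% in spleen and 4.12%, 0.21% and 0.070% in thymus (spleen difference -5.35 ± 1.20; limma adjusted p = 0.0459). The intergenic site on chromosome 16, also chosen after its values were seen, was the steadiest of the 10 in BM, with 22.8%, 21.9% and 21.4%, against 0.072%, 0.11% and 0.42% in spleen and 3.12%, 5.09% and 2.61% in thymus. Its spleen difference was -4.63 ± 0.96 (limma adjusted p = 0.0337), and its 3 tissues did not overlap.

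Acot10, which encodes a mitochondrial acyl-CoA thioesterase, was the exception among the 10. Its level was 64.0% and 56.2% in BM replicates 1 and 3 (114 and 105 reads), 17.4%, 16.8% and 19.1% in spleen and 40.2% and 28.6% in thymus replicates 1 and 3 (spleen difference -2.74 ± 0.60; limma adjusted p = 0.0459). In E861A mice the same site had 46.0%, 33.1% and 45.8% in spleen and 70.4%, 25.4% and 52.8% in thymus, so its G reads were also present where ADAR1 cannot edit. At the other 9 called sites the E861A level was at most 5.03%.

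**Figure D4:**
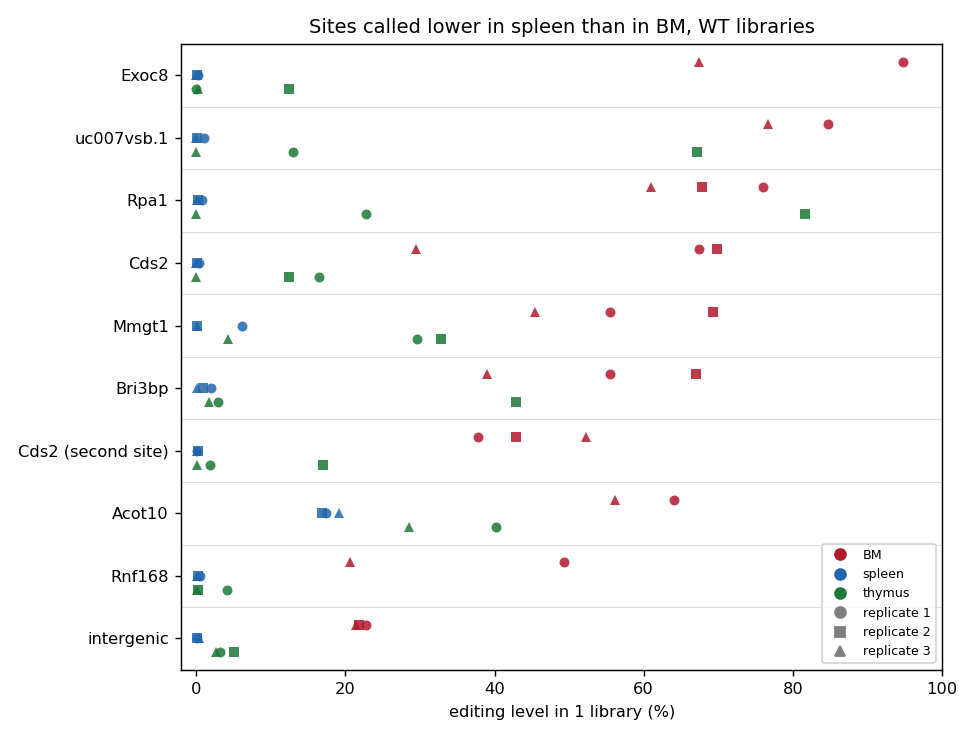
Editing level (%) in each WT library at the 10 sites called lower in spleen than in BM, ordered by the size of the difference; colours are tissues, shapes are replicate numbers, and a library with 100 reads or fewer is left out. BM libraries (red) sit at 20.6% or more, spleen libraries (blue) under 7% except at Acot10, and thymus replicate 2 (green squares) reaches the BM range at Rpa1 and Bri3bp.

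Values per gene, which average the same tested sites and are no separate test, had the same direction. Averaged over the sites of each gene, the log2 ratio was compared for 71 genes with at least 3 tested sites, and 9 were lower in spleen than in BM (12.7%) and none higher. The value was below 0 for 57 of the 71 genes, and the libraries did not overlap at 35 genes with spleen lower (49.3%) and 2 with spleen higher (2.82%). Cds2 was the clearest: its 6 sites averaged 22.7%, 23.2% and 15.3% in BM and 0.17%, 0.16% and 0.15% in spleen (log2 difference -3.51 ± 0.60; limma adjusted p = 0.00254). Its 3 thymus libraries had 4.14%, 5.52% and 0.12%.

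The other 8 genes were Calcrl, Bri3bp (a value over 3 of its 15 sites), uc007vsb.1, Exoc8, Mgat4a, Rpl7l1, Coq3 and Pank3. Calcrl, a G protein-coupled receptor for adrenomedullin and related peptides, averaged 23.2% and 10.5% in the 2 BM libraries that read it, 0.61%, 0.16% and 0.087% in spleen and 1.13%, 1.01% and 0.14% in thymus (spleen difference -3.42 ± 0.76; limma adjusted p = 0.0143). Mgat4a, an N-glycan branching enzyme, averaged 20.2% and 13.7% in BM and 1.26%, 2.74% and 0.27% in spleen (-2.87 ± 0.73; limma adjusted p = 0.0206). Rpl7l1, a ribosomal protein-like gene, had 47.5% and 16.8% in BM and 0.59%, 0.28% and 0.27% in spleen (-4.91 ± 1.38; limma adjusted p = 0.0345). Coq3, a methyltransferase of ubiquinone synthesis, had 6.70%, 18.4% and 8.06% in BM and 0.11%, 0.099% and 0.10% in spleen (-2.10 ± 0.63; limma adjusted p = 0.0425). Pank3, which starts coenzyme A synthesis, had the lowest levels of the 9, 3.12% and 2.31% in BM and at most 0.062% in spleen (-1.70 ± 0.52; limma adjusted p = 0.0470). Cds2 was the single gene that passed without any one spleen library, BM replicate 1 (28 genes tested) or BM replicate 3 (24 genes tested), and 16 and 17 passed without thymus replicate 3 and thymus replicate 2.

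Between thymus and BM no site passed the threshold, while the tissue mean was lower in thymus at 387 sites and the gene value at 48 of 71 genes. By limma 0 of 649 sites passed (0%), 55 had an unadjusted p under 0.05, of which 50 were lower in thymus, and the smallest adjusted p was 0.110. A quasi-binomial model called 1 site, lower in thymus, with 81 at an unadjusted p under 0.05. All thymus libraries lay below all BM libraries at 95 sites (14.6%) and above them at 22 (3.39%), and the median difference was 0.690 points in favour of BM. At the gene level Calcrl (-3.09 ± 0.76) and Cds2 (-2.46 ± 0.60) were lower in thymus (limma adjusted p = 0.0443 for both), 2.82% of the genes tested. The libraries did not overlap at 17 genes with thymus lower (23.9%) and 1 with thymus higher (1.41%). Leaving out 1 library at a time gave 0 to 5 genes, and 0 without any one of the spleen libraries. Without thymus replicate 3, the lowest thymus library in mean level, both were lost. The only call was then Rragd, a GTPase of amino acid sensing, higher in thymus by 2.33 ± 0.39. Rragd did not pass with all libraries, so this call rests on leaving out its lowest thymus library. Its 5 sites averaged 6.67%, 5.42% and 0.14% in thymus and at most 0.71% in BM and spleen.

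By percentage points and 1 site a gene, the largest differences between thymus and BM without overlap were at Exoc8, uc007vsb.1, Cds2, Mmgt1 and Rnf168, given above, and at C330018D20Rik. At the last, BM replicates 1 and 3 had 86.3% (107 of 124 reads) and 0.88%, while the 3 thymus libraries had 0 of 267, 211 and 560 reads, which allow up to 1.12%, 1.42% and 0.536%. The value in BM thus rested on replicate 1.

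The comparison of thymus with spleen depended on thymus replicate 3. With it, limma called 0 of 649 sites (0%) and 0 of 71 genes, with 17 sites and 5 genes at an unadjusted p under 0.05. The quasi-binomial model also called no site (20 at an unadjusted p under 0.05). Without thymus replicate 3, the lowest thymus library in mean level, 15 of 75 genes were higher in thymus and none lower. No site passed, though 104 sites had an unadjusted p under 0.05. Without thymus replicate 2, the highest, 0 of 67 genes passed. Leaving out the lowest thymus library itself favours higher values in thymus, so the 15 calls are no support for a difference. With all libraries, the thymus mean was the higher one at 422 sites and the lower one at 225, with a median difference of 0.945 points in favour of thymus. The groups did not overlap at 38 sites with thymus higher (5.86%) and 33 with thymus lower (5.08%), and at 5 genes with thymus higher (7.04%) and 1 with thymus lower (1.41%).

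Among the sites that did not overlap, Cdh1 had the largest difference. Cdh1 encodes the adhesion protein E-cadherin, and its 3′UTR site had 35.8%, 55.4% and 8.60% in thymus, 0.92%, 0.28% and 0.35% in spleen, and 41.0% and 11.6% in BM replicates 1 and 3 (thymus minus spleen 4.81 ± 1.17 on the log2 ratio scale; limma adjusted p = 0.702). Without thymus replicate 3, Cdh1 also had the largest difference of the 15 genes, 3.60 ± 0.42. This value and the gene values that follow come from the fit that left out the lowest thymus library. Others of the 15 were Tet1, a DNA demethylase (3.16 ± 0.70), Slfn5 (3.17 ± 0.71) and Iws1 (2.05 ± 0.44). With all libraries no gene passed, and the smallest limma adjusted p of the 71 genes was 0.448. The 3′UTR site of Iws1, a transcription elongation factor, had 22.7%, 35.8% and 2.13% in thymus against 1.68%, 0.12% and 0.26% in spleen. Igf2, a growth factor, had 4.29%, 56.6% and 0.41% in thymus against 0.26%, 0.22% and 0.16% in spleen, a difference carried by 1 library.

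In the other direction, Trim12c and Rhoa were lower in thymus than in spleen in every library. Trim12c, of the antiviral TRIM family, had the highest mean over the 3 tissues of all tested sites. Its levels were 68.8% and 48.0% in BM replicates 1 and 3, 48.3%, 62.1% and 50.4% in spleen and 43.2%, 40.7% and 27.1% in thymus (thymus minus spleen -0.98 ± 0.45; limma adjusted p = 0.702). Rhoa, a small GTPase of the cytoskeleton, had 42.4%, 49.9% and 35.3% in BM, 42.8%, 45.4% and 39.8% in spleen and 28.1%, 35.5% and 20.8% in thymus (-0.93 ± 0.47; limma adjusted p = 0.702). Between spleen and BM the ranges overlapped at both sites, with a difference of -0.29 ± 0.51 at Trim12c and 0.01 ± 0.47 at Rhoa on the log2 ratio scale. In E861A both sites stayed at or under 0.71% in all libraries of the 3 tissues.

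Mad2l1 and Malt1 were strongly edited and varied widely between libraries of spleen and of thymus. Mad2l1, of the spindle checkpoint, had 95.7% and 60.4% in BM replicates 1 and 3, 17.9%, 25.9% and 0% in spleen (0 of 1494 reads in replicate 3, which allows up to 0.201%) and 64.5%, 75.9% and 5.29% in thymus. Malt1, a protease of antigen receptor signalling in lymphocytes, had 59.4% and 47.3% in BM, 11.4%, 20.1% and 0.52% in spleen and 23.9%, 57.5% and 1.82% in thymus. At both, BM lay above all spleen libraries, and replicate 3 was the lowest of its tissue. Neither passed the test (limma adjusted p = 0.105 and 0.232 for spleen against BM).

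Some sites had similar means in the 3 tissues. Among sites with a mean above 10%, the 3 with the smallest range of tissue means were in Dcp2, at an intergenic position on chromosome 3 that GENCODE puts in a UTR exon of Fam46c, and in uc012aji.1. Dcp2, the mRNA decapping enzyme, averaged 11.6% ± 4.19 in BM, 12.2% ± 6.11 in spleen and 12.0% ± 5.26 in thymus (SD, n = 3). Within every tissue replicate 3 had the lowest Dcp2 level, 6.83%, 5.46% and 6.16%, and replicate 2 the highest, 14.8%, 17.3% and 16.4%. The intergenic site averaged 14.7%, 14.2% and 14.9%, but its thymus mean joined 20.4% and 24.2% with 0.10% in replicate 3, so that without replicate 3 the thymus lay above all BM and spleen libraries. The site in uc012aji.1 had 35.8% to 42.0% in all 8 WT libraries that read it and 34.6% to 39.1% in the 9 E861A libraries, with overlapping ranges between the genotypes. Its 21-base window occurs 286 times in the genome, and 56 of these copies carry G.

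None of the 12 nonsynonymous sites was called, where 1.54% of all sites tested were called for spleen against BM and 0% for the other comparisons. Cog3, of the Golgi tethering complex, was the only one above 10% in all 3 tissues, with 15.8%, 21.2% and 14.2% in BM, 26.4%, 32.2% and 17.8% in spleen and 22.5%, 18.6% and 18.5% in thymus for an Ile-to-Val change. Its level in E861A was 14.2% to 23.5%, within the WT range. The study gives Cog3 as an example of a site still edited in E861A, and takes such sites as specific targets of ADAR2. Ccni (cyclin I, Arg to Gly) had 4.37%, 5.33% and 2.41% in BM, 9.01%, 5.65% and 5.06% in spleen and 4.60%, 6.43% and 1.65% in thymus, against at most 0.71% in E861A. The remaining coding sites were either low or high in a single library. Flna (filamin A, Gln to Arg) had 28.9% in spleen replicate 3 and 0.30% to 2.72% in the other 8 libraries. Blcap (Tyr to Cys) had 56.3% in BM replicate 1, 7.40% in thymus replicate 1 and at most 0.081% in the other 6 libraries that read it. Gria3, a glutamate receptor subunit (Arg to Gly), had 9.12% in BM replicate 3 and at most 1.31% elsewhere. Zfp397 and Cyfip2 reached 3.19% and 3.26% in spleen replicate 3 and at most 0.46% in the other libraries. Copa, both Arl6ip4 sites, Stk36 and Ncstn stayed under 3% in every library. As a group, 7 of the 12 were above 1% in BM and 6 each in spleen and thymus. The mean was higher in spleen than in BM at 7 and lower at 5, with a median difference of 0.306 points in favour of spleen. Over all tested sites the median was 1.34 in favour of BM. Zfp397 and Cyfip2 were among the tested sites only through spleen replicate 3. The median of so few sites therefore depends on the 1% limit and on that library.

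**Figure D5:**
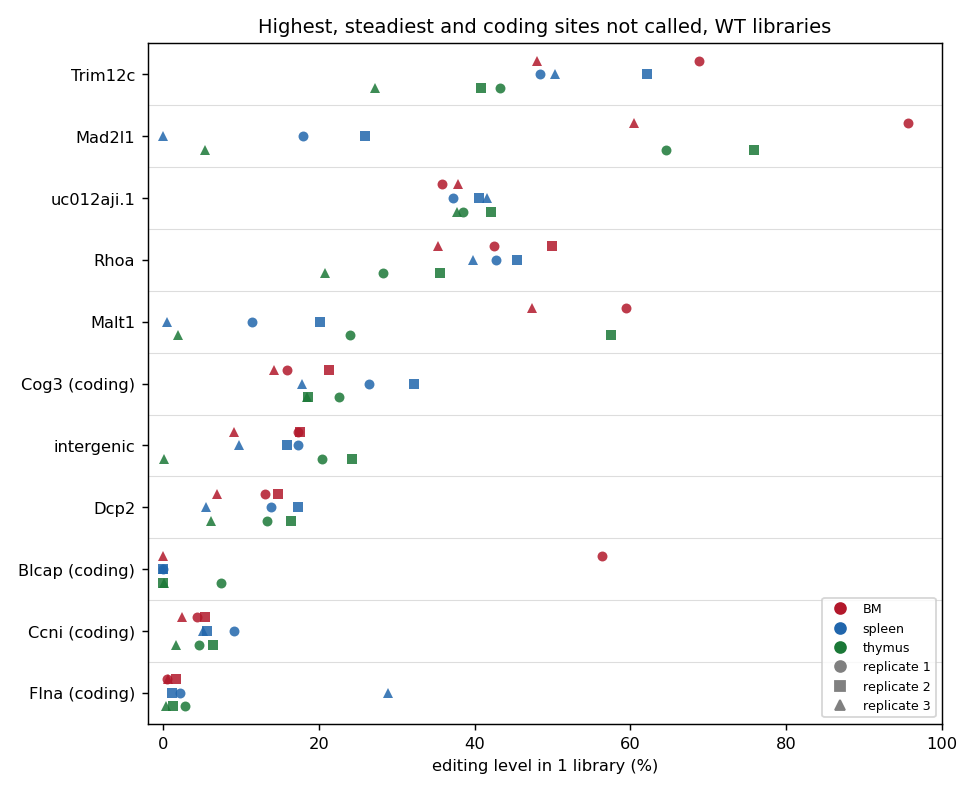
Editing level (%) in each WT library at the highest, the steadiest and the coding sites that were not called, for sites with a mean above 3%; colours are tissues, shapes are replicate numbers, and a library with 100 reads or fewer is left out. Trim12c, Rhoa and Dcp2 keep similar levels in BM and spleen, Mad2l1 and Malt1 range from under 6% to over 50%, and Flna and Blcap are high in 1 library each.

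By function, the median difference between spleen and BM was largest in metabolic genes and smallest in RNA handling genes among 5 gene lists. In DNA repair and cell division genes (84 sites in 11 genes), 2 sites were called lower in spleen than in BM, 66 had a lower mean and 18 a higher one, and the median difference was -2.30 points. In metabolic enzymes and transporters (94 sites in 14 genes) 2 sites were called, both in Cds2, 79 means were lower and 15 higher, and the median difference was -2.71 points. In membrane traffic and cytoskeleton genes (58 sites in 19 genes) 1 site was called, in Exoc8, and the median was -1.45 points. In immune and antiviral genes (19 sites in 7 genes) none was called, 15 means were lower and 4 higher, and the median was -0.853 points. In RNA handling genes (66 sites in 14 genes) none was called, 36 means were lower and 30 higher, and the median was -0.0943 points. Over all 649 sites the median was -1.34 points with 10 called. For thymus against BM no site was called, and the median was -2.16 points in metabolic, -1.39 in membrane traffic, -0.842 in DNA repair, 0.202 in immune and 0.238 in RNA handling genes, against -0.690 over all sites.

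Genes with many sites varied between the libraries of a tissue as well as between tissues. Averaged over its 13 sites, Rnf168 had 28.2% and 6.48% in BM replicates 1 and 3, 0.47%, 0.15% and 0.12% in spleen and 5.91%, 0.070% and 0.15% in thymus. Ankrd28 (16 sites) had 10.4% and 7.70% in BM, 1.49%, 0.57% and 0.18% in spleen and 7.31%, 11.3% and 0.16% in thymus. At both genes every BM library lay above every spleen library, and thymus replicate 3 lay below spleen replicate 1. Mad2l1 (19 sites) had 23.6% and 14.8% in BM, 5.89%, 7.90% and 0.69% in spleen and 15.9%, 20.6% and 0.90% in thymus, with 16 sites above 1% in spleen, 15 in BM and 12 in all 3 tissues. Specc1 (5 sites) had 19.5%, 4.85% and 9.05% in BM, 2.10%, 0.67% and 0.57% in spleen and 1.01%, 0.31% and 0.10% in thymus, with BM above both other tissues in every library.

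Some genes, picked after their values were seen, had a higher mean in spleen than in BM, without a call. Rbm41, an RNA-binding protein gene (7 sites), had 0.049% and 1.30% in BM replicates 1 and 3, 1.12%, 6.01% and 4.83% in spleen and 2.05%, 2.23% and 0.43% in thymus. Jmjd4 (8 sites) had 1.46% and 0.16% in BM, 0.88%, 3.55% and 3.31% in spleen and 1.36%, 7.73% and 1.07% in thymus. These are the 2 genes whose spleen libraries all lay above the BM libraries on the mean log2 ratio scale (2.82% of genes), but as mean percent, spleen replicate 1 lay between the BM libraries at both. Lsm11 and 2900026A02Rik were high only in thymus replicate 2, at 11.4% and 46.8% over their sites, against at most 0.21% and 1.04% in the other WT libraries.

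ADARs are known to disfavour a G just before the edited A. Here a G stood before the edited A at 8.61% of the sites edited in BM, 11.9% in spleen and 9.58% in thymus, against 24.5% of the 4364 covered positions at or under 1% in all 3 tissues. A T (U in RNA) stood there at 38.9%, 32.9% and 39.3%, against 17.6%. A G followed at 40.6%, 38.8% and 40.2%, against 34.2%. These are shares of sites that often lie in the same transcript, and they were not tested.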

How the data were processed

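Per the labels and the study's methods, RNA was amplified at known editing sites by microfluidic multiplex PCR and sequenced, and the submitters' processing notes name STAR, SAMtools and the mm9 genome. For each library the authors deposited read counts at every site, as coverage and edited reads, and a fraction for the level, equal to edited reads over coverage to within 0.0005. Levels were recomputed from the counts. A site was read in a library above 100 reads, covered in a tissue with at least 2 of 3 replicates read, and edited above a pooled level of 0.01.

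The log2 ratio of edited to unedited level, with 0.01 added to both, was fitted over the 9 WT libraries with limma 3.58.1 (R 4.3.3), with trended variance, 3 pairwise contrasts and a moderated F test, and Benjamini-Hochberg adjustment over all 649 sites at 0.05. Libraries at or under 100 reads at a site were dropped from its fit. Gene values are mean log2 ratios, for genes with at least 3 tested sites, over the sites covered in the most libraries, which were fewer than those tested at 10 genes (1 of 4 at Atxn3, 3 of 15 at Bri3bp). Mean levels were compared by exact permutation of libraries (20 relabelings), with adjustment over 3 comparisons. "Did not overlap" means that all libraries of one tissue lay on one side of all libraries of the other. Scripts were tested on simulated data. Python 3.11.15, pandas 2.3.3, numpy 2.4.6, scipy 1.17.1 and matplotlib 3.10.9 were used.

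Coverage summed over positions was 1861831 to 10847485 per library. Sites named were, for the spleen and BM comparison, the largest called differences at 1 site a gene; for the others, the largest without overlap; and the highest, the steadiest and all nonsynonymous sites. The members, gene lists and naming rule were chosen with earlier results of these data known. Alternatives covered coverage and editing limits, the added offset, variance trend, library weights, a replicate block, other models and leaving out libraries. Replicate numbers recur across tissues, but the labels name no shared animals, so no pairing was assumed.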

Additional observations from a re-analysis of the deposited data

How the results depend on the processing

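The direction of every mean difference and of every named call was kept under all alternatives that gave a value. The 21 calls for single sites and genes were recomputed 369 times in all, passed in 247 and were lost in 122. The Cds2 gene value for spleen against BM passed in all 14 alternatives (adjusted p 7.14e-05 to 0.0357). Against 10 sites for spleen and BM, 21 passed with an editing limit of 0.05, 6 with an offset of 0.001, 1 on untransformed levels, 20 without variance trend, 34 with the 6 libraries alone, 0 with the quasi-binomial model (0.5 added to edited and unedited reads) and 79 with the study's criterion. With no editing limit 11 passed, 6 higher and 5 lower in spleen, of which only 1 was among the 10. For thymus against BM, none passed in the main setting, 3 with no limit, 8 without trend, 1 quasi-binomial and 36 with the study's criterion; for thymus against spleen, 5 with no limit, all lower in thymus, and 15 with that criterion, 10 higher and 5 lower. The F test over all tissues called 0 sites (74 at an unadjusted p under 0.05, smallest adjusted p 0.0666), 6 with sites read in all replicates, 4 with the limit of 0.05, 11 with none, 1 with an offset of 0.05, 12 without trend, 6 with weights and 1 quasi-binomial. Genes numbered 23 for spleen against BM with weights, and 0 for thymus against BM and 1 for thymus against spleen with genes of 2 or more sites.

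With the replicate number as a block, 59 sites passed for spleen against BM, 3 for thymus against BM, 1 for thymus against spleen and 22 in the F test, and 19 and 4 genes in the first 2 comparisons. Of the 9 genes called for spleen against BM in the main setting, 8 passed with the block and Pank3 did not. For the mean levels, an exact sign-flip test of the differences between same-numbered libraries gave p = 0.25, 0.25 and 0.5. With 3 replicate numbers, 0.25 is the smallest p that this test allows. Same-numbered libraries correlated at 0.0069 to 0.232 in their deviations from the tissue means, 6 of 9 pairs over 0.1 and 3 not, and pairing was not assumed because the labels name no shared animals and not every pair was over 0.1; 8 of 9 libraries correlated best with their own number, a hint from the data only.

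Leaving out 1 library at a time gave 0 to 31 sites for spleen against BM, 0 to 1 for thymus against BM, 0 for thymus against spleen and 0 to 23 in the F test, 1 to 17, 0 to 5 and 0 to 15 genes in the same order, and 62.9% to 75.5% of tested sites edited in BM, 29.1% to 38.8% in spleen, 50.5% to 70.5% in thymus and 16.4% to 21.1% in all 3. The counts behind these shares fell with the sites tested, to 50 and 51 sites in all 3 tissues of 237 and 257 tested without BM replicate 3 and BM replicate 1, since BM replicate 2 is shallow. Without BM replicate 2 and thymus replicate 3 together, 25 sites and 24 genes passed for spleen against BM, 1 and 11 genes in the others and 19 sites in the F test. The mean level differed between spleen and BM by -5.73 to -4.44 points, between thymus and BM by -4.58 to -0.997 and between thymus and spleen by 0.487 to 3.63 with 1 library left out; averaged over genes the first was -3.19, and with the limit of 0.05 the 3 were -11.3, -6.61 and 4.71. At that limit 223, 57 and 150 of 260 sites were edited in BM, spleen (21.9%) and thymus and 41 in all 3. The cause of these changes was not tested.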

Other observations

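The same tissues of E861A mice showed the same uneven coverage of the 6 neuron genes, with a summed highest coverage of 551 to 4281 reads in BM, 4346 to 6157 in spleen and 3896 to 6157 in thymus. Of the 649 tested windows of 21 bases, 295 (45.5%) have an exact copy elsewhere in the mm9 genome when A or G is allowed at the edited base.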
